A study of Mus musculus with 6 samples.

Results

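The genes described here are 10 transcription factors of the neural plate and the early brain: Sox1, Sox2, Sox3, Zic1, Six3, Sp8, Pax6, Otx2, En1 and En2. They were chosen by symbol, with earlier results of these data known, so counts over them are not an independent test. All 19 probe sets that the platform annotation gives to these symbols alone were used, of 45101 probe sets on the array that name 18194 genes. The arrays were Affymetrix mouse expression arrays, hybridised with total RNA of mouse embryos of the ICR strain, staged at 3 to 4 somites and 8.5 days post coitum, before blood begins to circulate. Each of 3 groups had 2 arrays: Flk1-positive cells, Flk1 KO embryos and WT embryos. Flk1 is the VEGF receptor encoded by Kdr, which endothelial cells and their precursors carry. The embryo groups were embryos proper, per the design text. That text also names Flk1+/GFP embryos, but the sources used here do not give how the Flk1-positive cells were selected, or from which genotype. Selection and genotype therefore cannot be told apart in that group. No label states that the 2 arrays of a group stand for separate animals or pools. The p-values therefore cover only the spread between the 2 samples of a group, pooled over the 3 groups and adjusted toward that of all probe sets. That spread may be technical.

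At this stage the neural plate is rolling up into the neural folds, and its cells are being given positions along and across the future brain. Sox1, Sox2 and Sox3, the SoxB1 factors, mark neural progenitors along the whole plate. Six3, Sp8, Pax6 and Otx2 are active in the forebrain, Otx2 also in the midbrain and Pax6 also in the caudal neural tube. En1 and En2 mark the boundary of midbrain and hindbrain, and Zic1 the plate's edges and dorsal folds. Endothelial cells come from mesoderm and lie outside the neural plate. The comparisons address which genes are enriched in Flk1-positive cells of the embryo and what loss of Flk1 changes in the whole embryo.

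Promoters of 8 of the 10 genes were matched in RefSeq (build GRCm38.p6), with 14 start sites in all, each as 250 bases before and 50 bases after the start. En2 and Sox3 are named only. All 10 genes had the same direction in Flk1-positive cells, by the brightest probe set of each. The promoters of 4 genes with 1 listed start are shown, from the whole plate, dorsal folds, forebrain and boundary of midbrain and hindbrain. They are Sox2 at chr3:34649745-34650044 (+ strand), Zic1 at chr9:91365719-91366018 (- strand), Six3 at chr17:85620584-85620883 (+ strand) and En1 at chr1:120602237-120602536 (+ strand). Each runs 5′ to 3′ along the gene's strand, and capitals mark matches on either strand to 6 short motifs. These are GGGCGG for the box of Sp factors, CCAAT for the box of NF-Y, TATAAA for the box bound by the basal machinery, TAATTA for a homeodomain core, and for Sox cores ACAATG in its first form and ACAAAG in its second. No 2 of these words contain one another.
Sox2: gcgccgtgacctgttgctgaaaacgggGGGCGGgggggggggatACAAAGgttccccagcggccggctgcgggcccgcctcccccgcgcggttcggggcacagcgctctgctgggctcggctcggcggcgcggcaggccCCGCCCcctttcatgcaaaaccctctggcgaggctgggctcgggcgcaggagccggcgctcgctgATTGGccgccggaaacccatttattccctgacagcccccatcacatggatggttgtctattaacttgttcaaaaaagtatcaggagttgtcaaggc
Zic1: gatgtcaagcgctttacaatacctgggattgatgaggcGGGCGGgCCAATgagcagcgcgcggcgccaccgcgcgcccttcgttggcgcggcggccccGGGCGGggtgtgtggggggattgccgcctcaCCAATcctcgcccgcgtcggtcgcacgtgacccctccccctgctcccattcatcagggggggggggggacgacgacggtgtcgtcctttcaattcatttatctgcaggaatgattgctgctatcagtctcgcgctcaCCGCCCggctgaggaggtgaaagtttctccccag
Six3: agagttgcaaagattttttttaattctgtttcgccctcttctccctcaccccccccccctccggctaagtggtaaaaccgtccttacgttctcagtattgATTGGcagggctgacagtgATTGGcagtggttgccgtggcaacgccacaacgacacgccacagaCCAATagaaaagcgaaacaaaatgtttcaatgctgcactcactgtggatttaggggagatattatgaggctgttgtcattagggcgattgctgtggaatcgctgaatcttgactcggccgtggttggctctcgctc
En1: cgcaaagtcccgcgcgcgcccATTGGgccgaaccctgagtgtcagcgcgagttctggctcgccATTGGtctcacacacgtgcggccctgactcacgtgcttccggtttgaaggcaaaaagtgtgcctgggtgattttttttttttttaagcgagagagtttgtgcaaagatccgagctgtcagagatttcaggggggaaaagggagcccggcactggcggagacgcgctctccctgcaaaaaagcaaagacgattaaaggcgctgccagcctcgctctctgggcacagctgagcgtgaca
All 4 hold CCAAT, with 1 match for Sox2, 2 for Zic1, 3 for Six3 and 2 for En1, and 37.4% of all 32851 promoters of this length hold it. GGGCGG matched 2 times in the Sox2 and 3 times in the Zic1 promoter, and 35.7% of all promoters hold it. The second Sox core matched 1 time, in the Sox2 promoter, against 18.7% of all promoters. The TATAAA box, the homeodomain core and the first Sox core, found in 13.6%, 5.3% and 12.6% of all promoters, had no match in these 4 windows. Among promoters not shown, those of Otx2 and Sp8 include matches to the TATAAA box and the homeodomain core, and those of Sp8 to the first Sox core. The GC content was 66.3% for Sox2, 65.3% for Zic1, 50% for Six3 and 57.0% for En1, beside a median of 52.7% over all promoters. CpG pairs numbered 27, 31, 14 and 23 in the same order of genes, beside a median of 7. A match is a run of letters and not a known binding site.

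Values are linear probe-set signals, scaled before deposit so that each array has the same trimmed mean of 500, and the level of 1 probe set was not compared with that of another. Differences are on the scale log2(signal + 21.61), with the standard error (SE) of the limma fit, and a difference was called at a Benjamini-Hochberg adjusted p under 0.05 over all 33778 probe sets tested. A mean was taken as above background when it exceeded a signal of 57.4, the level of olfactory and vomeronasal receptor probe sets. Where the dimmer group's mean did not exceed it, only a bound is given, as at least the fold, on that log2 scale, by which the brighter mean exceeds this level. Of the 19 probe sets, 17 passed the filter on low values. The 2 that did not are both of Six3 (1426637_a_at and 1426638_at), which lay below background on all 6 arrays.

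Kdr, the targeted gene, was measured at 29.5 and 63.8 in Flk1 KO embryos, against 544 and 546 in WT embryos, a fall of at least 7.17-fold (limma adjusted p = 0.0459). It was 3309 and 3328 in Flk1-positive cells, 5.90-fold above WT embryos (log2 2.56 ± 0.25, limma adjusted p = 0.00192). Limma called all 10 endothelial markers higher in Flk1-positive cells than WT embryos, where 12.5% of all genes were called higher. Their summed signals were 43398 and 44332 in the cells, 951 and 1577 in Flk1 KO embryos and 3932 and 3829 in WT embryos. The Flk1 KO mean of 8 of the 10 was not above background. Those of Sox17, at 369 and 921, and Tek, at 296 and 439, were above it and made up most of the Flk1 KO sums. In Flk1 KO embryos 5 of the 10 were called lower than in WT embryos, namely Cldn5, Erg, Esam, Sox18 and Tie1, where 0.154% of all genes were called lower. These calls and that of Kdr between the embryo groups were lost when any 1 array was left out, since 0 probe sets were then called. The 5 primitive blood markers tested were also called higher in Flk1-positive cells, with summed signals of 42788 and 44519 there, 272 and 142 in Flk1 KO embryos and 985 and 479 in WT embryos. The share of probe sets above background was 54.3% to 57.9% per array. The 3′ minus 5′ difference of the Tfrc control probe sets was 1.26 and 1.35 on the log2 scale in Flk1-positive cells, 0.96 and 1.05 in Flk1 KO embryos and 1.0 and 0.94 in WT embryos. That of Actb was lower in the cells, at 0.26 and 0.29, against 0.47 and 0.58 in Flk1 KO embryos and 0.57 and 0.55 in WT embryos, while the Gapdh difference was -0.37 to -0.32 over the 6 arrays. The part of RNA quality in the results was not tested. The number of arrays limits the precision.

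All 10 factors were lower in Flk1-positive cells than WT embryos, by the brightest probe set of each gene. Of the 17 probe sets tested 14 were called lower and 0 higher, where 14.4% of all probe sets tested were called lower and 11.6% higher. By the brightest probe set of each gene 10 of 10 were called lower, where 18.1% of all genes were called lower and 12.5% higher. Without adjustment, 15 of the 17 had a limma p under 0.05 on the lower side and 0 on the higher side. This held for 21.8% and 17.2% of all probe sets tested. A limma fit with an intensity trend and a robust prior also called 0 higher. Both cell arrays lay below both WT arrays for 16 of the 17, where this held for 36.9% of all probe sets tested. The median log2 difference of the 10 brightest probe sets was -3.64, beside -0.09 over all genes. The summed signal of the 10 was 556 and 377 in Flk1-positive cells, 10496 and 11056 in Flk1 KO embryos and 11569 and 11254 in WT embryos. Such a sum is weighted toward probe sets of high signal. Sox2 alone read 4177 and 4992 in Flk1 KO embryos and 5470 and 5350 in WT embryos. In bulk RNA, fewer cells of a type and less RNA per cell cannot be told apart.

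Among the 3 SoxB1 factors, Sox2, which holds neural cells in a progenitor state, read 110.0 and 50.5 in Flk1-positive cells, 4177 and 4992 in Flk1 KO embryos and 5470.5 and 5350.3 in WT embryos. The mean of the cells was 1.48% of the WT mean, and the groups of cells and embryos did not overlap. The difference from WT embryos was -5.80 ± 0.30 (log2, SE, n = 2 arrays each, limma adjusted p = 0.000442), 55.7-fold on that scale, and only 1 probe set of all tested had a more negative difference. The cell signal was above background on the first array and not on the second.

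Sox1, the SoxB1 factor most restricted to the neural plate, read 36.1 and 15.1 in Flk1-positive cells, 751 and 746 in Flk1 KO embryos and 989 and 777 in WT embryos (1438729_at). Both cell arrays were below background, and the signal was at least 11.4-fold below WT embryos (limma adjusted p = 0.000519). The other Sox1 probe set, 1422205_at, read 10.7 and 4.15 in the cells, 114 and 77.2 in Flk1 KO embryos and 114 and 110.0 in WT embryos. It was called lower in the cells as well, by at least 1.69-fold (limma adjusted p = 0.00163).

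Sox3, an X-linked SoxB1 factor, stood above background on both cell arrays, at 109 and 120.2, against 1757 and 1740.2 in WT embryos (1435192_at). Flk1 KO embryos read 1808.5 and 1676. The mean of the cells was 6.55% of the WT mean, and the difference was -3.70 ± 0.13 (log2, SE, limma adjusted p = 0.000388). Its other probe set, 1450485_at, had 64.1 and 85.0 in the cells, 352 and 349 in Flk1 KO embryos and 335 and 301 in WT embryos, a 3.55-fold difference between cells and WT embryos (limma adjusted p = 0.00129). Sox3 was the only one of the 10 factors above background on both arrays of the cells.

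**Figure D1:**
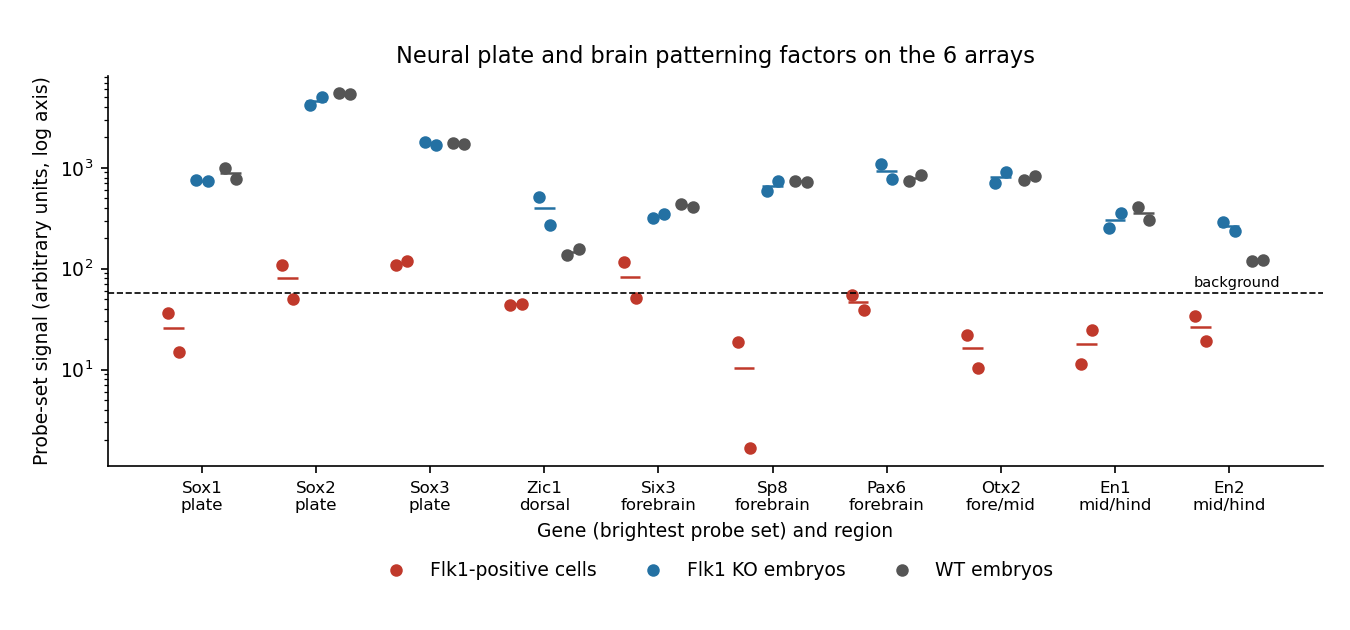
Signal (log axis) of the brightest probe set of each of the 10 factors on each array, with Flk1-positive cells left, Flk1 KO embryos in the middle and WT embryos right. Points are single arrays and the dashed line is the background signal of 57.4: the cell arrays of all 10 factors lie below the embryo arrays, and Sox3 alone is above background on both.

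Of the forebrain factors, Sp8, a zinc finger factor of the anterior neural ridge, read 18.9 and 1.65 in Flk1-positive cells, 591 and 738 in Flk1 KO embryos and 744 and 724 in WT embryos. It was below background on both cell arrays and at least 9.57-fold below WT embryos (limma adjusted p = 0.000547). Six3, which is required for the rostral forebrain and the eye field, read 115 and 51.8 in the cells, 320 and 352 in Flk1 KO embryos and 442 and 411 in WT embryos (1427523_at). The mean of the cells was 19.6% of the WT mean, the largest share among the 3 factors whose cell mean was above background, which were Sox2, Sox3 and Six3. The Six3 difference was -2.16 ± 0.30 (log2, SE, limma adjusted p = 0.00585), with the second cell array below background.

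Pax6, the paired box factor of the forebrain and eye, had 5 probe sets. The brightest, 1419271_at, read 55.5 and 38.7 in Flk1-positive cells, 1087 and 769 in Flk1 KO embryos and 741 and 846 in WT embryos, at least 10.3-fold lower in the cells than the WT level (limma adjusted p = 0.000571). The probe set 1452526_a_at gave 4.61 and 3.41 in the cells, 475 and 307 in Flk1 KO embryos and 304 and 301 in WT embryos, at least 4.11-fold lower (limma adjusted p = 0.00053). Both therefore placed the cells below background and the embryos far above it. The other 3 Pax6 probe sets were dim. The probe set 1425960_s_at read 2.69 and 1.5 in the cells, 195 and 47.6 in Flk1 KO embryos and 64.0 and 103 in WT embryos. It was called lower in the cells than WT embryos (limma adjusted p = 0.0387), a call lost when either array of the cells or of WT embryos was left out (adjusted p 0.101 to 0.164). The probe set 1437816_at, with 35.7 and 34.7 in the cells, 86.0 and 62.7 in Flk1 KO embryos and 52.6 and 63.4 in WT embryos, was not called against WT embryos (limma adjusted p = 0.094). The probe set 1456342_at, with 17.0 and 57.6 in the cells, 64.3 and 36.2 in Flk1 KO embryos and 15.0 and 33.7 in WT embryos, was not called either (limma adjusted p = 0.645), and its groups overlapped. The 2 brightest Pax6 probe sets were thus called lower in the cells, and the dim ones disagreed in call.

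Otx2, the homeobox factor needed for forebrain and midbrain, read 22.1 and 10.4 in Flk1-positive cells, 700 and 918 in Flk1 KO embryos and 765 and 822 in WT embryos. It was below background on both cell arrays and at least 10.3-fold below WT embryos (limma adjusted p = 0.000428). At the boundary of midbrain and hindbrain, En1 read 11.3 and 24.4 in the cells, 254 and 355 in Flk1 KO embryos and 405 and 305 in WT embryos, at least 4.73-fold lower in the cells than the WT level (limma adjusted p = 0.001). En2 read 33.8 and 19.2 in the cells, 291 and 238 in Flk1 KO embryos and 120 and 121 in WT embryos. Both engrailed genes were below background on both cell arrays, and En2 was at least 1.80-fold below WT embryos (limma adjusted p = 0.00401).

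Zic1, a zinc finger factor of the dorsal neural folds, read 43.8 and 44.9 in Flk1-positive cells, 518 and 272 in Flk1 KO embryos and 136 and 157 in WT embryos (1423477_at). The cells were below background and at least 2.12-fold below WT embryos (limma adjusted p = 0.025). This call was lost when any array of the cells or of WT embryos was left out (adjusted p 0.0868 to 0.118). The other Zic1 probe set, 1439627_at, read 1.03 and 24.6 in the cells, 131 and 94.2 in Flk1 KO embryos and 27.2 and 27.9 in WT embryos. Cells and WT embryos were both not above background with it, so no fold is given, and it was not called (limma adjusted p = 0.27).

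Flk1-positive cells were next set against Flk1 KO embryos. This comparison shares the cell arrays with the one above, so its values are given beside those and not as separate evidence. Of the 17 probe sets 16 were called lower in the cells and 0 higher, where 15.4% of all probe sets tested were called lower and 13.8% higher. The same limma fit gave 16 lower and 0 higher at an unadjusted p under 0.05, where this held for 21.8% and 19.9% of all probe sets tested. The fit with an intensity trend also called 0 higher. By brightest probe set all 10 genes were called lower, where 19.6% of all genes were called lower and 13.2% higher. Sox2 differed by -5.56 ± 0.30 from Flk1 KO embryos and by -5.80 ± 0.30 from WT embryos, and Sox3 by -3.70 ± 0.13 from either (log2, SE). Six3 differed by -1.83 ± 0.30 from Flk1 KO embryos (limma adjusted p = 0.00903), a call lost without the second Flk1 KO array (adjusted p = 0.0546). The bounds against Flk1 KO embryos were at least 11.8-fold for Pax6, 10.4-fold for Otx2, 9.75-fold for Sox1, 8.64-fold for Sp8 and 4.08-fold for En1. For En2 the bound was at least 3.61-fold (limma adjusted p = 0.000762), and for Zic1 at least 5.04-fold (limma adjusted p = 0.00276), against 1.80-fold and 2.12-fold when the same cells were set against WT embryos. The 1439627_at probe set of Zic1 was called as well, by at least 1.68-fold (limma adjusted p = 0.0108), and this call was lost without the first Flk1 KO array (adjusted p = 0.0637). The dim Pax6 probe sets 1425960_s_at and 1437816_at were called lower than in Flk1 KO embryos too. Both calls were lost when either cell array was left out (adjusted p 0.0822 to 0.0998), and that of 1437816_at also without the first Flk1 KO array (adjusted p = 0.0716).

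**Figure D2:**
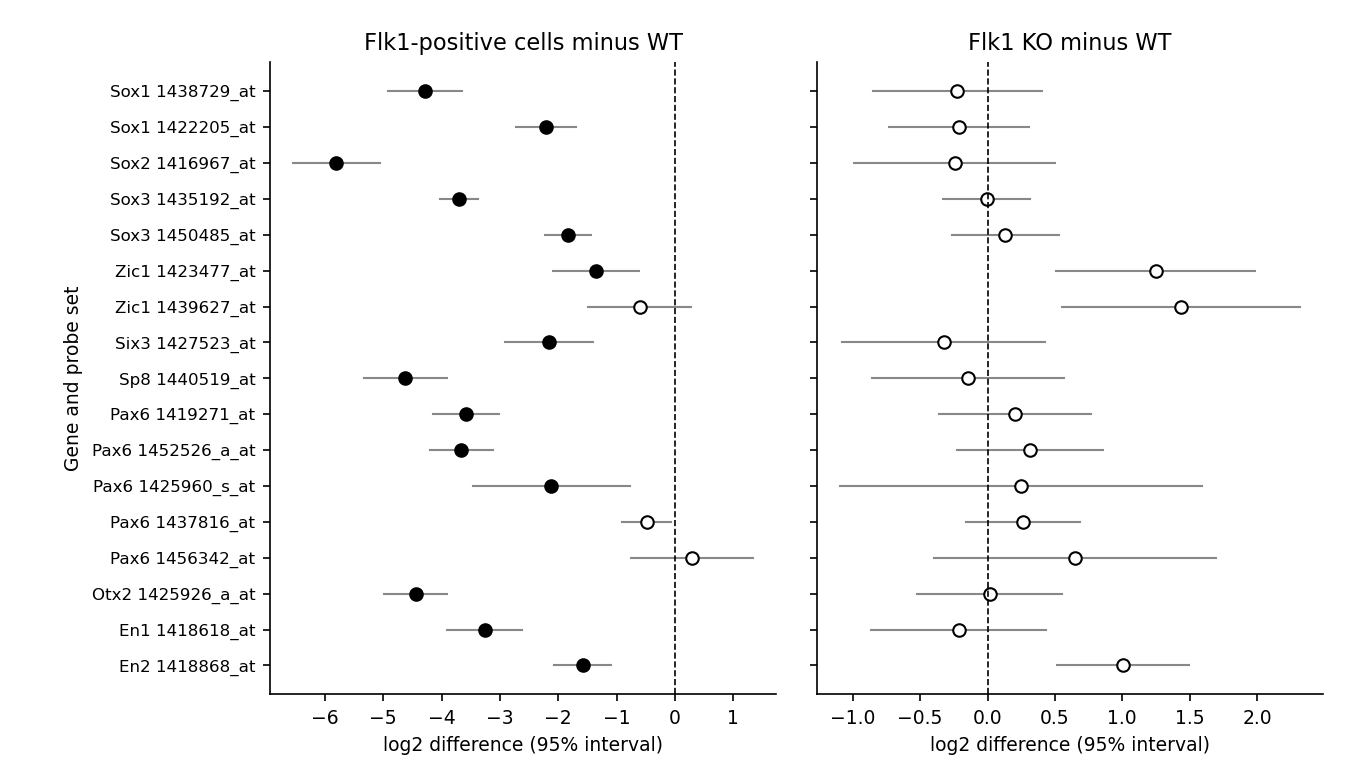
Log2 difference of each of the 17 probe sets tested, on the scale log2(signal + 21.61), for Flk1-positive cells against WT embryos (left) and Flk1 KO against WT embryos (right). Points are limma estimates from 2 arrays a group, lines are 95% intervals and filled points passed the test: 14 are filled on the left, from -5.80 to -1.35, and 0 on the right.

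In Flk1 KO embryos none of the 17 probe sets was called against WT embryos. The limma adjusted p-values lay between 0.271 and 0.995, where 0.0799% of all probe sets tested were called lower and 0% higher. The fit with an intensity trend and a robust prior also called 0 of the 17. Without adjustment, 3 of the 17 had a p under 0.05 on the higher side and 0 on the lower side, where this held for 2.48% and 5.91% of all probe sets tested. Both Flk1 KO arrays lay above both WT arrays for 6 of the 17 probe sets, below them for 3, and overlapped with them for 8, where 16.7% of all probe sets tested lay above and 21.4% below. The 3 with a p under 0.05 were those of En2 and Zic1.

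En2 read 291 and 238 in Flk1 KO embryos, against 120 and 121 in WT embryos. The groups did not overlap, and the difference was 1.0 ± 0.20 (log2, SE, 95% interval 0.52 to 1.49, limma adjusted p = 0.271). It ranked 141st from the highest of 33778 differences. Over 16 alternatives, leaving out each array among them, the difference was 0.77 to 1.14. Several of these, such as the filter and the variance prior, cannot change the estimate. Its sign over them is therefore no separate evidence.

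Zic1 read 518 and 272 in Flk1 KO embryos, against 136 and 157 in WT embryos, by 1423477_at. The difference was 1.25 ± 0.29 (log2, SE, 95% interval 0.51 to 1.99, limma adjusted p = 0.368), and the 2 Flk1 KO arrays differed more from each other than the 2 WT arrays did. By 1439627_at the signals were 131 and 94.2 in Flk1 KO embryos, against 27.2 and 27.9 in WT embryos. This probe set differed by 1.43 ± 0.35 (log2, SE, 95% interval 0.55 to 2.32, limma adjusted p = 0.388), with the WT mean not above background, at least 1.68-fold. Both Zic1 probe sets thus lay higher on both Flk1 KO arrays, and neither passed the test under any alternative run, with adjusted p-values of 0.136 to 0.761 and 0.149 to 0.756. The 2 probe sets report on the same RNA samples and are not replicates of each other.

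**Figure D3:**
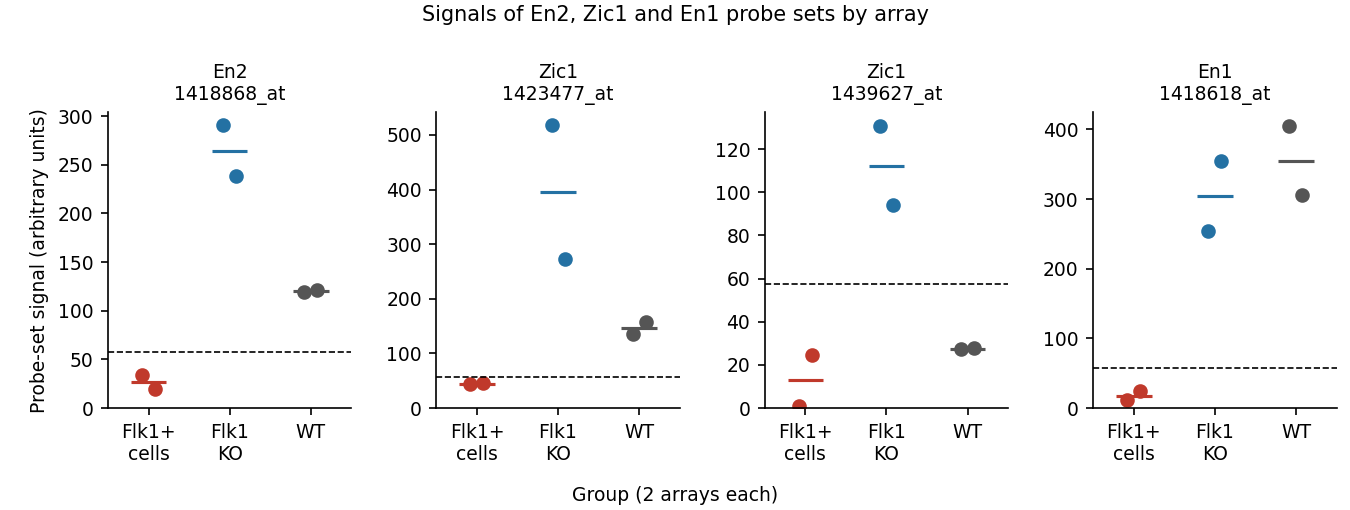
Signal (linear axis from 0) of En2, both Zic1 probe sets and En1 on each array, for Flk1-positive cells, Flk1 KO embryos and WT embryos from left to right. Points are arrays, short lines are means of 2 arrays and the dashed line is background: both Flk1 KO arrays lie above both WT arrays for En2 and Zic1, where no such difference passed the test, and the embryo groups of En1 overlap.

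Genes of the same position or family are set beside En2 and Zic1. En1, at the same boundary as En2, had overlapping groups, with 254 and 355 in Flk1 KO embryos and 405 and 305 in WT embryos, a difference of -0.21 ± 0.26 (log2, SE, 95% interval -0.86 to 0.43). Of the other boundary genes, Fgf8, the signal of the isthmic organiser, read 361 and 375 in Flk1 KO embryos and 354 and 343 in WT embryos, and Gbx2, which sets the hindbrain side, 663 and 1049 in Flk1 KO embryos and 1052 and 998 in WT embryos. In the Zic family, Zic5 read 528 and 945 in Flk1 KO embryos and 982 and 863 in WT embryos, and Zic2 read 222 and 207 in Flk1 KO embryos and 230 and 241 in WT embryos. Their differences were -0.37 ± 0.30 for Zic5 and -0.12 ± 0.63 for Zic2 (log2, SE). Whether En2 differs from En1, or Zic1 from its family, in the change between genotypes was not tested.

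The other factors had smaller differences between Flk1 KO and WT embryos, by the brightest probe set of each. Their intervals rest on a spread taken over all 6 arrays, the cell arrays included. Sox3 differed by -0.01 ± 0.13 (log2, SE, 95% interval -0.33 to 0.31), the narrowest of the 10. Otx2 differed by 0.01 (interval -0.53 to 0.56), Sp8 by -0.15 (interval -0.86 to 0.57) and Pax6 by 0.20 (interval -0.36 to 0.76). Sox1 differed by -0.22 (interval -0.85 to 0.41), Sox2 by -0.24 (interval -0.99 to 0.50) and Six3 by -0.32 (interval -1.08 to 0.43). All of these intervals include 0. For 3 of the 10, Sox1, Sox2 and Six3, the embryo groups did not overlap and Flk1 KO embryos were the lower. The same order without overlap was seen in 21.4% of all probe sets tested. A p that misses the threshold does not show that the embryos were alike.

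Markers of other cell types are set beside these values. The 6 cardiomyocyte markers had both Flk1 KO arrays above both WT arrays in 6 of 6 cases, where 16.7% of all probe sets tested lay above. Their summed signals were 17876 and 12671 in Flk1 KO embryos, against 9277 and 9652 in WT embryos, and limma called none of the 6. Somite markers summed to 6001 and 6377 in Flk1 KO embryos and 6219 and 6049 in WT embryos, and neural crest markers to 2762 and 2653 in Flk1 KO embryos and 2990 and 3064 in WT embryos. In Flk1-positive cells, where 18.1% of all genes were called lower than in WT embryos and 12.5% higher, limma called 5 of 6 cardiomyocyte, 5 of 6 somite and 4 of 6 neural crest markers lower, and 1 neural crest marker, Ets1, which endothelial cells also express, higher. Of the gut endoderm markers 6 of 7 were called lower in the cells and 1, Sox17, which endothelium also expresses, higher, and of the surface ectoderm markers tested 4 of 5 were called lower. Of the crest markers, Pax3 read 21.0 and 19.9 in the cells, against 517 and 475 in WT embryos. The part of these other cell types in the values of En2 and Zic1 was not tested.

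Beside the 10 factors, the neural lists named 74 other genes, of which 66 were on the array and 60 were tested. The lists too were chosen with earlier results of these data known. In Flk1-positive cells limma called 43 of the 60 lower than in WT embryos and 1 higher, where 18.1% of all genes were called lower and 12.5% higher. The 60 had a median of -2.23 on the log2 scale, beside -0.09 over all genes. Every list had called falls, counted by the same test. Among pan-neural genes 9 of 10 fell, with Ptn, a secreted growth factor of the neural tube, at 462 and 369 in the cells, against 8705 and 8215 in WT embryos (19.5-fold), and Fabp7, a fatty acid binding protein of neural progenitors, lower by at least 5.96-fold. Nes, which encodes the intermediate filament nestin and is also made by young endothelial cells, was the one that rose, at 593 and 611 in the cells, against 280 and 326 in WT embryos (log2 0.94 ± 0.19, limma adjusted p = 0.0177). In the Zic and dorsal list 7 of 8 fell, with Zic5 lower by 11.1-fold and Wnt3a, a dorsal midline signal, by at least 4.52-fold. In the forebrain and eye field list 7 of 9 fell, with Hesx1, a repressor of the anterior plate, lower by at least 11.1-fold and Fezf1 by at least 7.25-fold. In the forebrain and midbrain list 3 of 5 fell, with Otx1, the relative of Otx2, lower by at least 2.09-fold and Irx3 by 3.95-fold.

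At the boundary of midbrain and hindbrain 6 of 7 fell, with Sp5, a target of Wnt signalling, lower by at least 12.3-fold and Gbx2 by 5.26-fold. In the hindbrain list 5 of 6 fell, with Epha4, an ephrin receptor of the rhombomeres, lower by 12.6-fold and Hoxb1, a Hox factor of the hindbrain, by 10.9-fold. In the floor plate and ventral list 4 of 6 fell, with Shh, the ventral midline signal, lower by 12.1-fold and Foxa2 by at least 7.80-fold, and both are also made by notochord and gut endoderm. The neurogenic list differed in its count, with 2 of 9 called lower, Stmn2 by 9.23-fold and Tubb3, the neuronal tubulin, by at least 4.36-fold. In that list 3 of the 9 tested genes were below background in both groups.

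**Figure D4:**
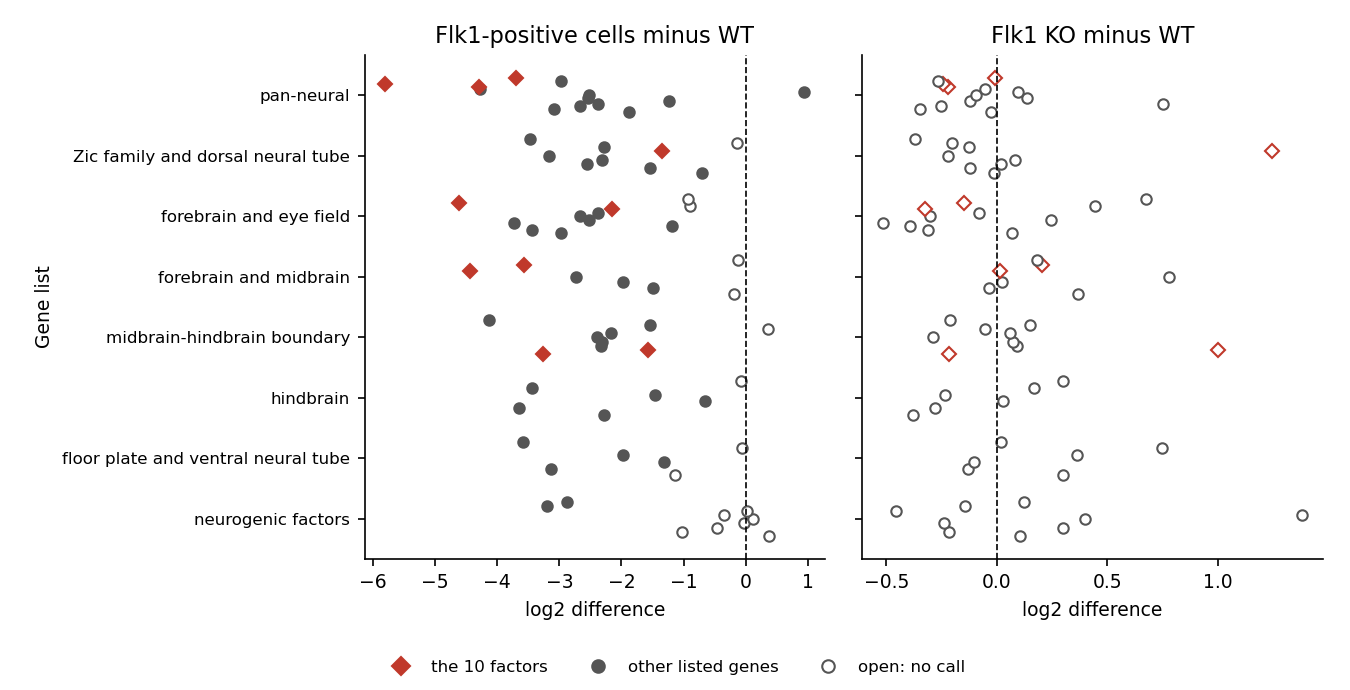
Log2 differences of the tested genes of each neural list, 1 point a gene by its brightest probe set, for Flk1-positive cells against WT embryos (left) and Flk1 KO against WT embryos (right). Diamonds are the 10 factors, circles the other listed genes, and filled symbols passed the test: the circles' list medians lie between -2.54 and -0.35 on the left and between -0.12 and 0.18 on the right.

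In Flk1 KO embryos limma called 0 of these 60 genes against WT embryos, and the smallest adjusted p was 0.0999. Without adjustment 4 had a p under 0.05 on the higher side (Neurog2, Otx1, Hes5 and Olig2) and 1 on the lower side (Neurog3), where this held for 2.62% and 3.67% of all genes. The 60 genes had a median of -0.02, beside 0.00 over all genes, and both Flk1 KO arrays lay above both WT arrays for 14 and below them for 12, where this held for 16.7% and 21.4% of all probe sets tested. The following were singled out after their values were seen. Neurog2, a proneural factor, read 120.4 and 92.1 in Flk1 KO embryos, against 27.3 and 26.9 in WT embryos, where it was not above background (log2 1.38 ± 0.16, limma adjusted p = 0.0999). Otx1 read 288 and 239 in Flk1 KO embryos, against 125 and 164 in WT embryos (log2 0.78 ± 0.18, limma adjusted p = 0.356). Hes5, a Notch target of neural progenitors, read 372 and 253 in Flk1 KO embryos, against 162 and 186 in WT embryos (log2 0.75 ± 0.28, limma adjusted p = 0.568). Olig2 read 68.7 and 29.3 in Flk1 KO embryos, against 19.4 and 18.1 in WT embryos, with neither mean above background (log2 0.75 ± 0.28, limma adjusted p = 0.553). These values, like those of En2 and Zic1, lay higher on both Flk1 KO arrays and did not pass the test. Neurog3 was lower in Flk1 KO embryos and did not pass it either.

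The genes whose pattern over the 6 arrays was most like the average of the 10 factors were found by the Euclidean distance between centred log2 values, among 14936 other genes. They were Shh (distance 0.19), Trh (0.23), Tbx6 (0.25), Gli2 (0.26) and Rragd (0.29). Trh encodes thyrotropin-releasing hormone and Gli2 a transducer of Hedgehog signalling. Shh read 113 and 87.7 in Flk1-positive cells, 1391 and 1534 in Flk1 KO embryos and 1441 and 1442 in WT embryos. Tbx6, a factor of presomitic mesoderm, read 44.2 and 30.3 in the cells, 718 and 695 in Flk1 KO embryos and 763 and 586 in WT embryos. The average pattern of the 10 factors, low in the cells and about level between the embryo groups, was thus shared by genes of mesoderm and the midline. En2 and Zic1, higher on both Flk1 KO arrays, depart from that average. With 6 arrays in 3 groups, the average pattern describes little more than the group means.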

How the data were processed

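Biotin-labelled total RNA, prepared with an RNeasy Micro kit per the labels' protocols, was hybridised to Affymetrix arrays. The authors deposited 1 linear signal for each probe set and array. Each array's trimmed mean (2% left out at each end) was 500 and its lowest value 1, so the deposited signals were scaled and floored, by a program the sources used here do not give. The design text names GeneSpring. In the platform annotation 34958 probe sets had 1 symbol, 932 several and 9211 none, and only those with 1 were named.

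Signals were taken as log2(signal + 21.61), the pseudocount being the 25th percentile of all values. The 64 control probe sets and those with a mean below the 25th percentile were left out. Limma 3.58.1 (R 4.3.3) was fitted to the other 33778 over the 6 arrays, with group as the only term. Tests were two-sided, with 3 residual and 2.49 prior degrees of freedom, and adjusted over all 33778. A gene was represented by its brightest probe set by mean over the arrays. Background was set from 80 olfactory and vomeronasal receptor probe sets, at their 95th percentile. The procedure was also run on simulated data with normal noise and differences planted only in probe sets of higher mean. Recovery for dim probe sets was not examined there, and the outcome is not given here.

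All 10 factors were named with every probe set, and, of each other neural list, up to 2 of the largest falls and rises called in Flk1-positive cells against WT embryos. Of the marker lists, counts, Kdr and genes called in Flk1 KO embryos were named, and the 5 most alike genes by distance. Neighbours of En2 and Zic1, Pax3, Ets1 and the genes at an unadjusted p under 0.05 were added after their values were seen. The factors and lists were chosen with earlier results of these data known.

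Alternatives were the pseudocount, filter, normalization, variance prior, groups in the fit, a replicate block, 1 probe set per gene, other background levels and leaving out each array. Figures used matplotlib 3.10.9.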

Additional observations from a re-analysis of the deposited data

How the results depend on the processing

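Flk1-positive cells against WT embryos gave 14 called probe sets of the 10 factors, all lower, and 12 to 14 when 1 array was left out. Against Flk1 KO embryos they gave 16, and 14 to 16 when 1 array was left out, and 10 with 1 probe set per gene, where only 10 could be called. Flk1 KO against WT embryos gave 0 in the fit and 0 to 0 when 1 array was left out, and 0 under every other alternative run. For the other neural genes the counts were 44, 45 and 0 for these comparisons, with ranges of 34 to 43, 40 to 43 and 0 to 0 when 1 array was left out. The titles number the replicates without saying that a number pairs samples. The deviations of same-numbered arrays correlated at 0.029, 0.008 and 0.023 (Pearson's r over probe sets). With 2 arrays a group this cannot settle whether same-numbered samples were handled together. With the replicate number as a block the factors had 13 called probe sets against WT embryos, 16 against Flk1 KO embryos and 0 between the embryo groups, and the other neural genes 42, 45 and 0. No called difference changed its direction. The call of Pax6 1425960_s_at against WT embryos was also lost with no filter on low values (adjusted p = 0.0549) and with the block (adjusted p = 0.0556), and the cause was not tested. Zic1 1439627_at was called lower in Flk1-positive cells than WT embryos without the second cell array (adjusted p = 0.041). Over all probe sets, 27 were called lower and 0 higher between Flk1 KO and WT embryos, and 121 and 13 with an intensity trend and robust prior, which also lost the call of Pax6 1437816_at against Flk1 KO embryos (adjusted p = 0.0661). None was called with the smaller pseudocount, only the 2 groups, the block or any 1 array left out. Centring each array on its median moved the median difference of Flk1 KO from WT embryos to 0.08 from -0.02 on the log2 scale, and that of Sox3 to 0.10. Bounds move with the background level: at its 90th and 99th percentile that of Otx2 against WT embryos was 12.3 and 8.83, and that of En2 2.14 and 1.54.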
